A study of Homo sapiens with 6 samples.

Results

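The genes described here control the passage from the G1 phase of the cell cycle into DNA synthesis (S phase): E2F1, RB1, CCNE1, CDC25A, CDK2, CDK4, CDKN1A and CDKN2A. They were chosen by name for these roles and are 8 of the 89 genes on a cancer pathway PCR array. The RNA was from Panc-1, an established line of human pancreatic cancer, carrying a doxycycline-inducible (tet-on) system for CaSm, the RNA-binding protein also called LSm1. There were 3 conditions with 2 plates each. In the induced cells, tet-on CaSm cells were grown with 1 μg/ml doxycycline for 4 weeks. In the non-induced cells, the same tet-on CaSm cells were grown for 4 weeks without doxycycline. The driver controls were Panc-1 cells with the tet-on transactivator and no inducible CaSm, grown with 1 μg/ml doxycycline for 4 weeks. Both lines were stable retroviral-vector pools and not single clones. All cells had been selected with G418, and the tet-on CaSm cells with puromycin as well. No driver cells without doxycycline were among the plates. Between induced cells and driver controls the CaSm construct and the added puromycin selection differed together, and between induced and non-induced cells doxycycline and CaSm induction differed together, so within each comparison these cannot be told apart. CaSm itself was not analysed here, since its gene is not among the 89.

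Growth signals act on G1 through cyclin-dependent kinases. CDK4 with D-type cyclins, and then CDK2 with cyclin E, phosphorylate the retinoblastoma protein RB, which releases E2F transcription factors. E2F proteins turn on genes needed for S phase, among them CCNE1, CDC25A, CDK2 and E2F1 itself, while p21 and p16 hold the kinases back. Panc-1 is known as a line with a homozygous deletion of CDKN2A.

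The promoters of the 3 genes that passed the test in a comparison of induced cells with a control are shown because E2F proteins act at such sequences. They are RefSeq sequences of GRCh38.p14, written 5′ to 3′ on the strand of the gene, from 250 bases before to 50 bases after its start. Capitals mark each match to the E2F motif TTTNNCGC, searched on both strands, so that a match on the opposite strand reads GCGNNAAA. CCNE1 lies at chr19:29811741-29812040 on the plus strand, CDC25A at chr3:48188368-48188667 on the minus strand and E2F1 at chr20:33686336-33686635 on the minus strand.
CCNE1: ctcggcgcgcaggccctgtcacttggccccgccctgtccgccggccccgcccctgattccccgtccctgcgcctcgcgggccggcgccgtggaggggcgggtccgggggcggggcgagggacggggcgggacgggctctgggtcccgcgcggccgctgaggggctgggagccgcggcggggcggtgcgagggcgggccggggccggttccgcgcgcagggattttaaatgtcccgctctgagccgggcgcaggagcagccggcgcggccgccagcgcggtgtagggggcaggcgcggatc
CDC25A: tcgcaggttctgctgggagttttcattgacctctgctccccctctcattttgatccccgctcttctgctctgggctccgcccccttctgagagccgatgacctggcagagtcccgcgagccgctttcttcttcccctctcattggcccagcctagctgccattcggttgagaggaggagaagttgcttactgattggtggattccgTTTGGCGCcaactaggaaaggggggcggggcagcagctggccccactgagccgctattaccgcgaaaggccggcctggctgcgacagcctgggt
E2F1: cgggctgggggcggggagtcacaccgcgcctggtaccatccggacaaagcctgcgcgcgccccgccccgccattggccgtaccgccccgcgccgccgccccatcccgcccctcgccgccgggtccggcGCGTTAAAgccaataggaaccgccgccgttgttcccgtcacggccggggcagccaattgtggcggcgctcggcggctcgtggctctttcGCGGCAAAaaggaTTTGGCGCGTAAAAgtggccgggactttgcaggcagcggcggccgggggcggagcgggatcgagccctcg

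The CDC25A promoter held 1 match, at positions -44 to -37 from the start. The E2F1 promoter held 4, at -122 to -115, -33 to -26, -20 to -13 and -14 to -7, of which the last pair overlap by their end bases. No match to these letters lay in the CCNE1 window. The table gives 1 start per gene and held 7 of the 8 genes, CDK2 being the exception. Of these, 2 held the motif, against 2418 of all 35116 promoters of the same length in the table, or 6.89%. Whether the start given is the main start of each gene was not checked, so the count holds for these windows only. A match is a description of the letters and not evidence of a bound site.

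Each level is given as ΔCt, the threshold cycle of the gene minus the plate's mean threshold cycle over the normalizing genes B2M, HPRT1 and GAPDH. A ΔCt higher by 1 stands for a relative RNA level lower by a factor of 2, if the PCR product doubles in each cycle. All 8 genes were detected under the limit of 35 cycles on all 6 plates, and 79 of the 89 genes were. The typical gap between plates of 1 condition, taken as the median over those 79 genes, was 0.21 cycles in non-induced cells, 0.26 in driver controls and 0.34 in induced cells. These gaps ran mostly one way, since 78.5% of genes had the higher level on replicate 1 of the induced cells. Separate cultures for the plates of each condition are not stated in the labels, so p-values measure the spread between plates, which may be technical. Adjusted p-values come from limma fitted over all genes, and genes that miss the 0.05 threshold are given with the 95% interval of their log2 fold change.

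**Figure D1:**
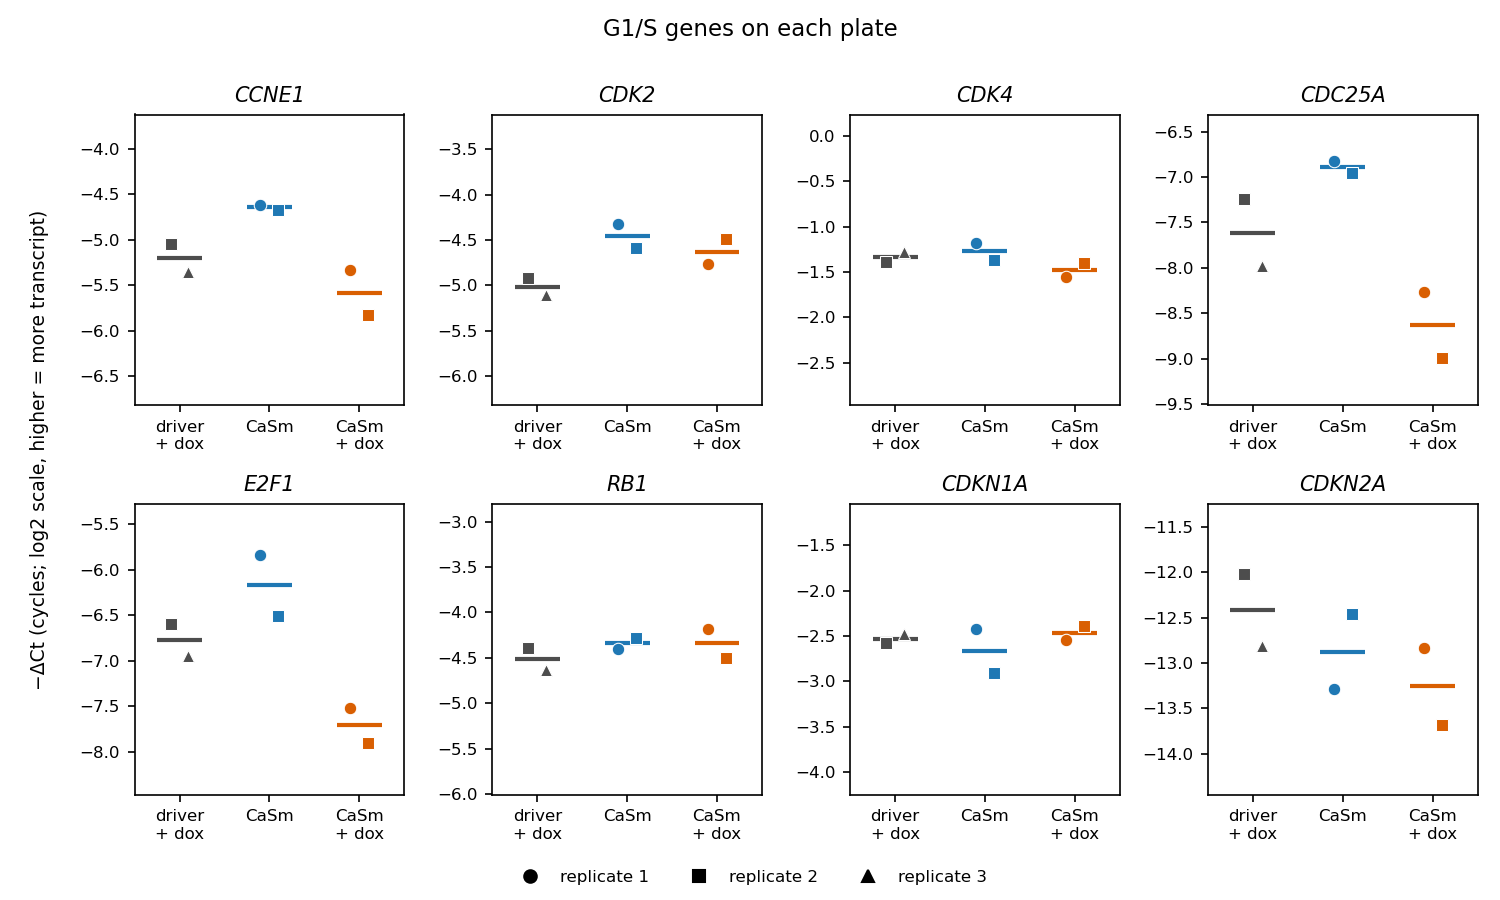
Relative level (−ΔCt, in cycles on a log2 scale, higher is more RNA) of the 8 genes on each of the 6 plates, with points for plates and bars for the mean of 2 plates. E2F1, CDC25A and, by small margins, CDK4 were lower on both induced plates than on all 4 control plates. The plates for RB1 and CDKN1A overlapped across conditions. Of all genes tested, 54.1% did not overlap between induced and driver plates and 61.4% between induced and non-induced plates, in either direction.

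E2F1 and CDC25A, an E2F transcription factor and a phosphatase that activates CDK2, fell in induced cells against both controls. CCNE1, which encodes cyclin E1, fell against non-induced cells and did not pass the test against driver controls. No G1/S gene passed the test as higher in either comparison. CDK2, CDK4, RB1, CDKN1A and CDKN2A did not pass the test in any comparison.

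E2F1 encodes the transcription factor that RB restrains. Its ΔCt was 7.52 and 7.91 on replicates 1 and 2 of the induced cells, 6.60 and 6.95 on replicates 2 and 3 of the driver controls, and 5.84 and 6.50 on replicates 1 and 2 of the non-induced cells. Both induced plates were therefore lower in E2F1 RNA than every control plate, and the groups did not overlap. The means were 7.71 ± 0.28 (SD, n = 2) in induced cells, 6.77 ± 0.25 (SD, n = 2) in driver controls and 6.17 ± 0.47 (SD, n = 2) in non-induced cells. Against driver controls E2F1 fell 1.92-fold (log2 fold change −0.94 ± 0.29 SE, where SE is the standard error, limma adjusted p = 0.0389). Against non-induced cells it fell 2.91-fold (log2 fold change −1.54 ± 0.29 SE, limma adjusted p = 0.00461). From the lowest, the E2F1 change had rank 3 of the 83 genes tested against non-induced cells and rank 8 of 85 against driver controls.

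CDC25A encodes a phosphatase that removes inhibitory phosphates from CDK2. The induced plates gave a ΔCt of 8.27 and 9.0, the driver plates 7.25 and 7.98, and the non-induced plates 6.83 and 6.95. CDC25A was thus lowest on the induced plates, with no overlap with either control. The gap between its plates was wider in induced cells and driver controls than in non-induced cells. The means were 8.63 ± 0.52 (SD, n = 2) in induced cells, 7.61 ± 0.52 (SD, n = 2) in driver controls and 6.89 ± 0.090 (SD, n = 2) in non-induced cells. CDC25A fell 2.03-fold against driver controls (log2 fold change −1.02 ± 0.32 SE, limma adjusted p = 0.0389). Against non-induced cells it fell 3.34-fold (log2 fold change −1.74 ± 0.32 SE, limma adjusted p = 0.00461), which was the lowest log2 fold change of the 83 genes tested. Its change against driver controls had rank 6 from the lowest of 85 genes.

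CCNE1 encodes cyclin E1, the partner of CDK2 at the start of S phase. Its ΔCt was 5.34 and 5.83 on the induced plates, 5.05 and 5.35 on the driver plates, and 4.62 and 4.67 on the non-induced plates. The induced and driver plates overlapped, and both non-induced plates held more CCNE1 RNA than any other plate. Against non-induced cells CCNE1 fell 1.91-fold (log2 fold change −0.94 ± 0.26 SE, limma adjusted p = 0.0286). Against driver controls its log2 fold change was −0.38 (95% interval −0.95 to 0.19, adjusted p = 0.316), an interval that still holds a decrease of the size seen against non-induced cells. With GAPDH alone as the normalizing gene this value was 0.01, and with B2M alone it was −0.85 and passed the test (adjusted p = 0.0127).

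The calls for these genes rested on few plates. Against driver controls, the adjusted p-values of E2F1 and CDC25A were over 0.05 without replicate 1 or without replicate 2 of the non-induced cells (0.0504 and 0.0820 in both cases), which enter only through the shared spread. They were also over 0.05 without driver replicate 2 (log2 fold changes of −0.76 and −0.65, adjusted p = 0.195 and 0.264) and without induced replicate 2 (−0.74 and −0.65, adjusted p = 0.142 and 0.188). Against non-induced cells, leaving out non-induced replicate 1 ended the calls for E2F1 (−1.21, adjusted p = 0.0917), CDC25A (−1.68, adjusted p = 0.0856) and CCNE1 (−0.91, adjusted p = 0.162). CCNE1 was also over 0.05 without non-induced replicate 2 (adjusted p = 0.119) and without induced replicate 2 (−0.69, adjusted p = 0.155). The log2 fold changes of these genes stayed negative without any of the 6 plates, as they did within runs. Replicate numbers stand for date-like marks in the plate titles, so that plates of the same number share a mark (called a run here), and the labels do not say what the mark means. Between the plates of run 2, E2F1 differed by −1.31 and CDC25A by −1.75 (induced minus driver). Induced minus non-induced values for run 1 and run 2 were −1.68 and −1.40 for E2F1, −1.44 and −2.04 for CDC25A, and −0.72 and −1.15 for CCNE1. Run 3 held 1 driver plate and gives no such value.

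RB1 encodes the protein that binds E2F and blocks its activity. Its ΔCt was 4.18 and 4.50 on the induced plates, 4.39 and 4.63 on the driver plates, and 4.40 and 4.28 on the non-induced plates. The plates of all 3 conditions overlapped in RB1. The log2 fold change of induced cells was 0.17 against driver controls (95% interval −0.37 to 0.71, adjusted p = 0.681 from limma) and 0.0033 against non-induced cells (95% interval −0.54 to 0.54, adjusted p = 0.989).

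Of the kinases, CDK2 acts with cyclin E. It had a ΔCt of 4.77 and 4.49 on the induced plates, 4.92 and 5.11 on the driver plates, and 4.33 and 4.58 on the non-induced plates. Induced plates held more CDK2 RNA than driver plates without overlap (but −0.08 with B2M alone as the normalizing gene), and overlapped with the non-induced plates. The log2 fold change was 0.39 against driver controls (95% interval −0.15 to 0.93, adjusted p = 0.290 from limma) and −0.17 against non-induced cells (95% interval −0.71 to 0.37, adjusted p = 0.636).

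CDK4, the partner of D-type cyclins, had the earliest threshold cycles of the 8, between 21.29 and 21.58. It gave a ΔCt of 1.56 and 1.40 on the induced plates, 1.39 and 1.28 on the driver plates, and 1.18 and 1.36 on the non-induced plates. The induced plates were lower in CDK4 RNA than all control plates by small margins. Its log2 fold change was −0.14 against driver controls (95% interval −0.66 to 0.37, adjusted p = 0.692 from limma) and −0.21 against non-induced cells (95% interval −0.72 to 0.31, adjusted p = 0.532). Scaling to GAPDH alone turned both to positive values of 0.25 and 0.13, and with B2M alone both were at −0.61 and passed the test (adjusted p = 0.040 and 0.0391).

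CDKN1A encodes p21, an inhibitor of cyclin-CDK complexes. Its ΔCt was 2.55 and 2.39 on the induced plates, 2.58 and 2.48 on the driver plates, and 2.43 and 2.90 on the non-induced plates. All 3 conditions overlapped, and the widest gap lay between the non-induced plates. The log2 fold change of CDKN1A was 0.06 against driver controls (95% interval −0.49 to 0.62, adjusted p = 0.869 from limma) and 0.20 against non-induced cells (95% interval −0.36 to 0.75, adjusted p = 0.591).

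CDKN2A encodes p16, the inhibitor of CDK4. Its assay crossed the threshold between 32.11 and 33.86 cycles, the latest of the 8 genes and rank 76 of 89 from the earliest mean, so its values lie close to the 35-cycle limit. The ΔCt was 12.84 and 13.68 on the induced plates, 12.02 and 12.81 on the driver plates, and 13.29 and 12.46 on the non-induced plates. The induced plates lay just beyond the driver plates and overlapped with the non-induced plates. The log2 fold change was −0.84 against driver controls (95% interval −1.68 to −0.01, limma adjusted p = 0.119) and −0.38 against non-induced cells (95% interval −1.22 to 0.46, adjusted p = 0.520). Without driver replicate 3 or without induced replicate 1 the first of these passed the threshold, at −1.24 (adjusted p = 0.0160) and −1.26 (adjusted p = 0.0319). It also passed with B2M alone as the normalizing gene (−1.31, adjusted p = 0.0151) and with a block for the run (−1.24, adjusted p = 0.0200). Set beside the deletion known for Panc-1, a late signal was present on every plate, and what the assay amplified was not tested.

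**Figure D2:**
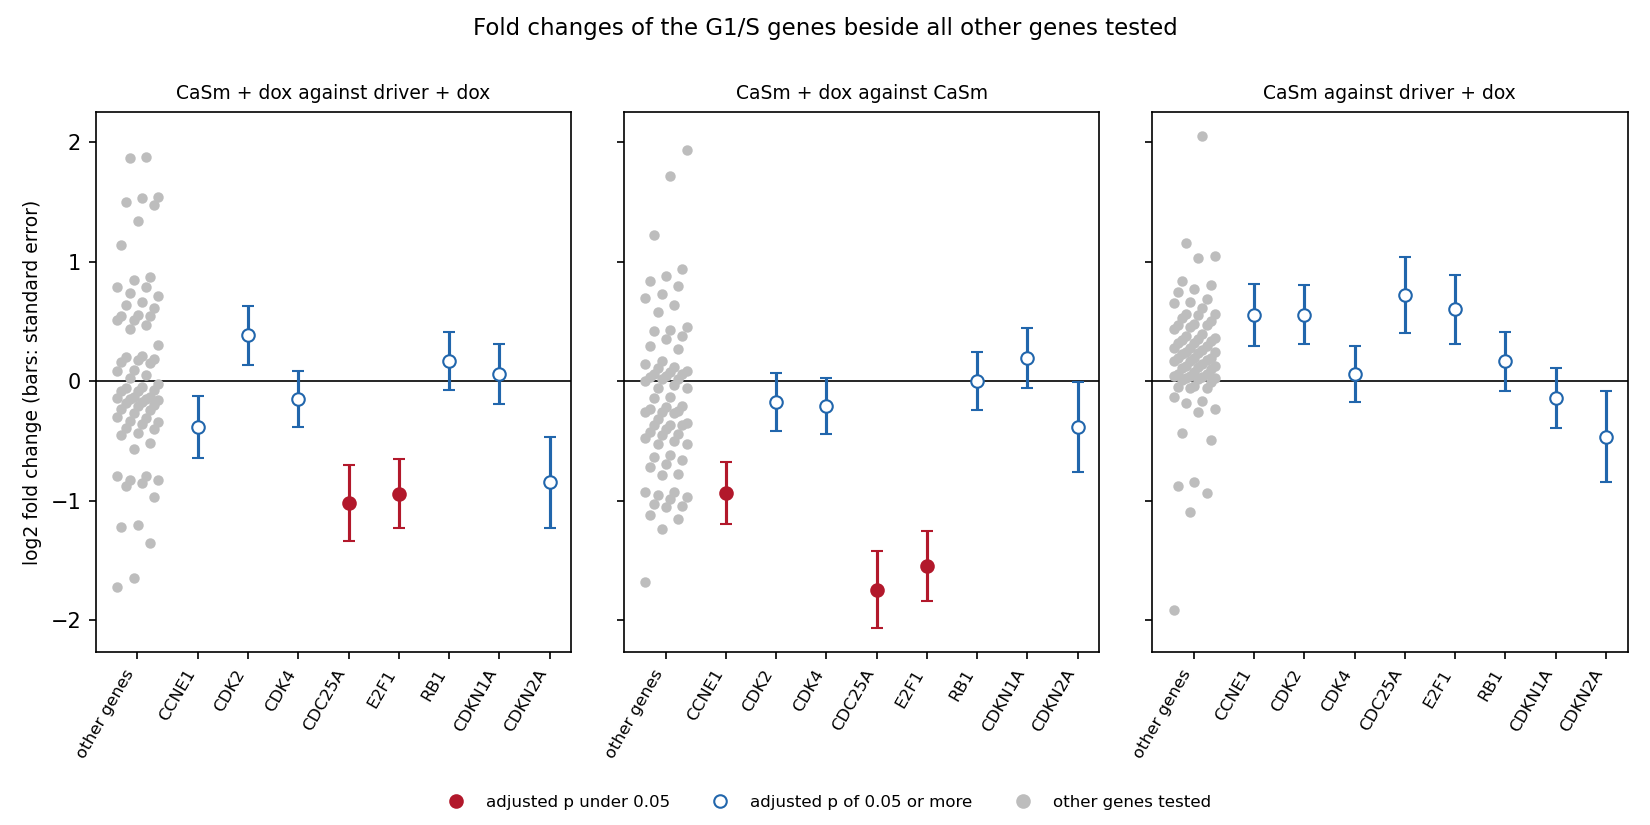
Log2 fold change (−ΔΔCt) of the 8 genes in the 3 comparisons, beside the other genes tested. Points are the limma estimate over 2 plates per condition, and bars on the 8 genes are its standard error. The 95% intervals are not drawn. Those of E2F1 and CDC25A lay below 0 for induced cells against both controls. That of CCNE1 did so against non-induced cells (−1.51 to −0.37).

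Against driver controls, 2 of the 8 genes passed the test, both lower, where 23.5% of the 85 genes tested passed and 12.9% passed as lower. A change of at least 1.5-fold was found for 3 of the 8, all lower (E2F1, CDC25A and CDKN2A), against 37.6% of genes tested in either direction. The plates did not overlap for 5 of the 8 (CDK2 higher, with CDC25A, CDK4, CDKN2A and E2F1 lower), against 54.1% of all. The counts of the 8 genes were thus near those of the array. Their median log2 fold change was −0.26, and that of all genes tested was −0.08. Set against this all-gene median, E2F1 was at −0.86 and CDC25A at −0.94.

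Against non-induced cells, 3 of the 8 passed, all lower, where 25.3% of the 83 genes tested passed and 18.1% passed as lower. The same 3 genes were past 1.5-fold, against 38.6% of all genes tested. The share of the 8 that passed was above that of the array by about 1 gene. Plates did not overlap for 4 of the 8 (CCNE1, CDC25A, CDK4 and E2F1, each lower), against 61.4% of all. The median log2 fold change was −0.29 over the 8 genes and −0.21 over all genes tested. Set against the latter, CDC25A was at −1.53, E2F1 at −1.33 and CCNE1 at −0.72. The comparisons with driver and with non-induced cells share the induced plates.

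Non-induced cells were also compared with driver controls, which differed in construct, selection and doxycycline. By limma, 0 of the 8 genes passed, where 7.06% of the 85 genes tested passed and 3.53% passed as lower, and 2 of the 8 had an unadjusted p under 0.05. CDC25A had a log2 fold change of 0.72 (95% interval 0.02 to 1.43, limma adjusted p = 0.224) and CDK2 of 0.56 (0.02 to 1.10, adjusted p = 0.224). E2F1 was at 0.60 (−0.04 to 1.25, adjusted p = 0.243) and CCNE1 at 0.55 (−0.02 to 1.12, adjusted p = 0.239). With the median of all genes in place of the normalizing genes these values were 0.18 for CDC25A, 0.015 for CDK2, 0.06 for E2F1 and 0.01 for CCNE1, since the median log2 fold change of all genes then shifted by −0.54. Between the plates numbered 2 alone they were 0.29, 0.33, 0.09 and 0.37. For all 4 of these genes the non-induced plates held more RNA than the driver plates without overlap, as 50.6% of genes tested did not overlap in one direction or the other. CDC25A and E2F1 were past 1.5-fold, which 22.4% of genes tested were. The median was 0.36 over the 8 genes and 0.20 over all. CDK4, RB1, CDKN1A and CDKN2A had adjusted p-values of 0.946, 0.740, 0.796 and 0.545. For E2F1, CDC25A and CCNE1 the driver controls lay between the non-induced and induced means, and these comparisons share plates.

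Differences between 2 of the genes on the same plate need no normalizing gene. They were taken for 6 gene pairs and are given as values, on which no test was run. How often other gene pairs of the array separate was not counted. Plates of single genes did not overlap for 54.1% of genes tested against driver controls and 61.4% against non-induced cells. E2F1 relative to RB1, its inhibitor, was −3.34 and −3.41 on the log2 scale on induced plates, −2.21 and −2.32 on driver plates, and −1.44 and −2.22 on non-induced plates. The ratio of E2F1 to RB1 RNA was thus lower on both induced plates than on any control plate. On average it was lower by 2.16-fold against driver controls and 2.92-fold against non-induced cells. RB1 itself had log2 fold changes of 0.17 and 0.0033, so this ratio mostly restates the fall of E2F1. For CDC25A relative to CDK2, which it activates, the plates gave −3.50 and −4.51 in induced cells, −2.33 and −2.87 in driver controls, and −2.50 and −2.37 in non-induced cells. The induced plates were again apart, by 2.65-fold and 2.97-fold, and the controls overlapped with each other. CDK2 did not pass the test, so this ratio too rests mainly on the fall of CDC25A. Zero on these scales has no meaning, since assays of different genes are not calibrated to each other.

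The activators relative to the inhibitor p21 were less uniform. CCNE1 relative to CDKN1A was −2.79 and −3.44 on induced plates, −2.47 and −2.87 on driver plates, and −2.19 and −1.77 on non-induced plates. Induced plates were lower than non-induced plates by 2.20-fold without overlap and overlapped with driver plates. CDK2 relative to CDKN1A was −2.22 and −2.10, −2.34 and −2.63, and −1.90 and −1.68 in the same order, so the induced plates lay between the controls without overlap. Of the kinases themselves, CDK4 relative to CDK2 was 3.21 and 3.09 on induced plates, 3.53 and 3.83 on driver plates, and 3.15 and 3.22 on non-induced plates. The tet-on CaSm cells with and without doxycycline were alike to within −0.035 in this balance and overlapped, and induced cells were lower than driver controls by 1.44-fold. CDK4 relative to CDKN2A overlapped in all 3 comparisons.

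**Figure D3:**
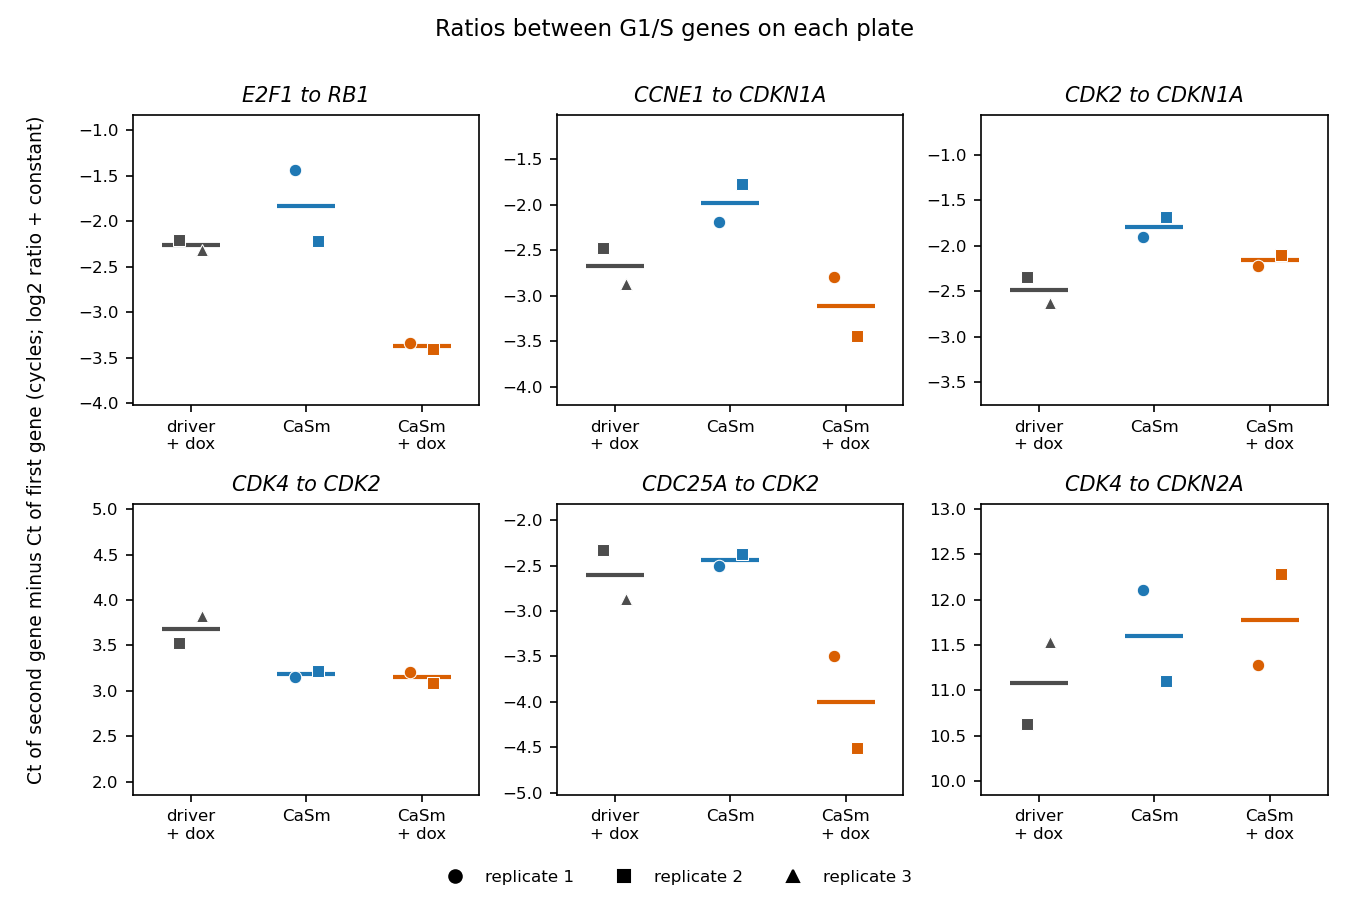
Log2 ratio of gene pairs on the 6 plates, computed as the difference of their threshold cycles on the same plate, with points for plates and bars for the mean of 2 plates. For E2F1 to RB1 and CDC25A to CDK2, both induced plates lie below all 4 control plates.

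Across the 6 plates, the genes that fell also varied together. Pearson's r of the level was 0.98 between CCNE1 and CDC25A, 0.96 between CDC25A and E2F1, and 0.93 between CCNE1 and E2F1. For E2F1 and the genes that did not pass, r was 0.04 with RB1, 0.21 with CDK2, 0.72 with CDK4, −0.27 with CDKN1A and 0.35 with CDKN2A. The genes that fell were picked by their low level on the same plates, so a high r among them is partly built in. The points share plates and normalizing genes and include the differences between conditions, so these are descriptions. Among the 68 other genes ranked, BRCA1 (r = 0.98), APAF1 (r = 0.97) and PIK3R1 (r = 0.97) were most like CCNE1. PIK3R1 (r = 0.98) and APAF1 (r = 0.96) were among the 3 most like CDC25A, and NME1 (r = 0.95) and ITGA2 (r = 0.94) among the 3 most like E2F1.

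Genes upstream and downstream of the G1/S step were counted by list. Of 2 further genes known as E2F targets, APAF1, which drives caspase activation, fell against non-induced cells (log2 fold change −0.97 ± 0.29 SE, limma adjusted p = 0.0377). BRCA1, a DNA repair gene, did not pass in that comparison (−0.53, adjusted p = 0.161). Of all genes tested there, 25.3% passed and 18.1% passed as lower. A list of 2 genes is too short to say anything of E2F targets as a group. Against driver controls 0 of these 2 passed, where 23.5% of all genes tested did, with APAF1 at −0.40 (adjusted p = 0.351) and BRCA1 at −0.20 (adjusted p = 0.649). The fall of APAF1 against non-induced cells passed in 5 of 10 alternative settings that keep every plate and give a test. It did not pass with HPRT1 alone (limma adjusted p = 0.0974) or GAPDH alone (adjusted p = 0.186) as the normalizing gene. The APAF1 call was lost without non-induced replicate 1 (−1.04, adjusted p = 0.162), non-induced replicate 2 (−0.89, adjusted p = 0.184) or induced replicate 2 (−0.68, adjusted p = 0.181).

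Of the growth-induced transcription factors MYC, JUN and FOS, which act as cells enter G1, 1 passed in each comparison of induced cells with a control, beside 23.5% of all genes tested against driver controls and 25.3% against non-induced cells. MYC had a ΔCt of 4.85 and 5.56 on induced plates, 6.46 and 6.95 on driver plates, and 5.68 and 6.12 on non-induced plates. Induced plates held more MYC RNA than all control plates, the opposite direction to E2F1, CDC25A and CCNE1. MYC rose against driver controls 2.83-fold (SE 0.31 on the log2 scale, limma adjusted p = 0.00488) and was at 0.70 against non-induced cells (adjusted p = 0.134). FOS fell against non-induced cells (−1.05 ± 0.30 SE, limma adjusted p = 0.0340) and was at −0.85 against driver controls (adjusted p = 0.0640). This fall against non-induced cells passed in 6 of 10 alternative settings that keep every plate and give a test. It did not pass with HPRT1 alone (limma adjusted p = 0.0963) or GAPDH alone (adjusted p = 0.135). The FOS call was lost without non-induced replicate 1 (−0.94, adjusted p = 0.191), non-induced replicate 2 (−1.15, adjusted p = 0.119) or induced replicate 2 (−0.65, adjusted p = 0.181).

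The normalizing genes moved against each other between conditions. B2M had a mean ΔCt of 0.097 in induced cells, 0.56 in driver controls and 0.50 in non-induced cells, so its share of the normalizing mean was higher in induced cells. GAPDH went the other way, at −1.78, −2.17 and −2.12, and HPRT1 was at 1.68, 1.61 and 1.62. The median log2 fold change of all genes against driver controls shifted by −0.47 with B2M alone, 0.07 with HPRT1 alone and 0.39 with GAPDH alone. Of all genes tested against driver controls, 9 passed as higher and 11 as lower with the mean of the 3 genes, 7 and 37 with B2M alone, 7 and 4 with HPRT1 alone, and 24 and 5 with GAPDH alone. Against non-induced cells these splits were 6 and 15, 2 and 40, 2 and 4, and 11 and 4. E2F1 and CDC25A remained lower in induced cells under each of these scalings, with log2 fold changes no nearer to 0 than −0.55 and −0.63 against driver controls over all 10 alternatives that keep every plate and give a test. Their adjusted p-values against driver controls were under 0.05 in 5 of these 10 for each gene, ranging from 0.00238 to 0.223 for E2F1 and from 0.00288 to 0.265 for CDC25A. Against non-induced cells they were under 0.05 in 9 of 10 for each, and CCNE1 in 5 of 10 (0.00115 to 0.204).

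**Figure D4:**
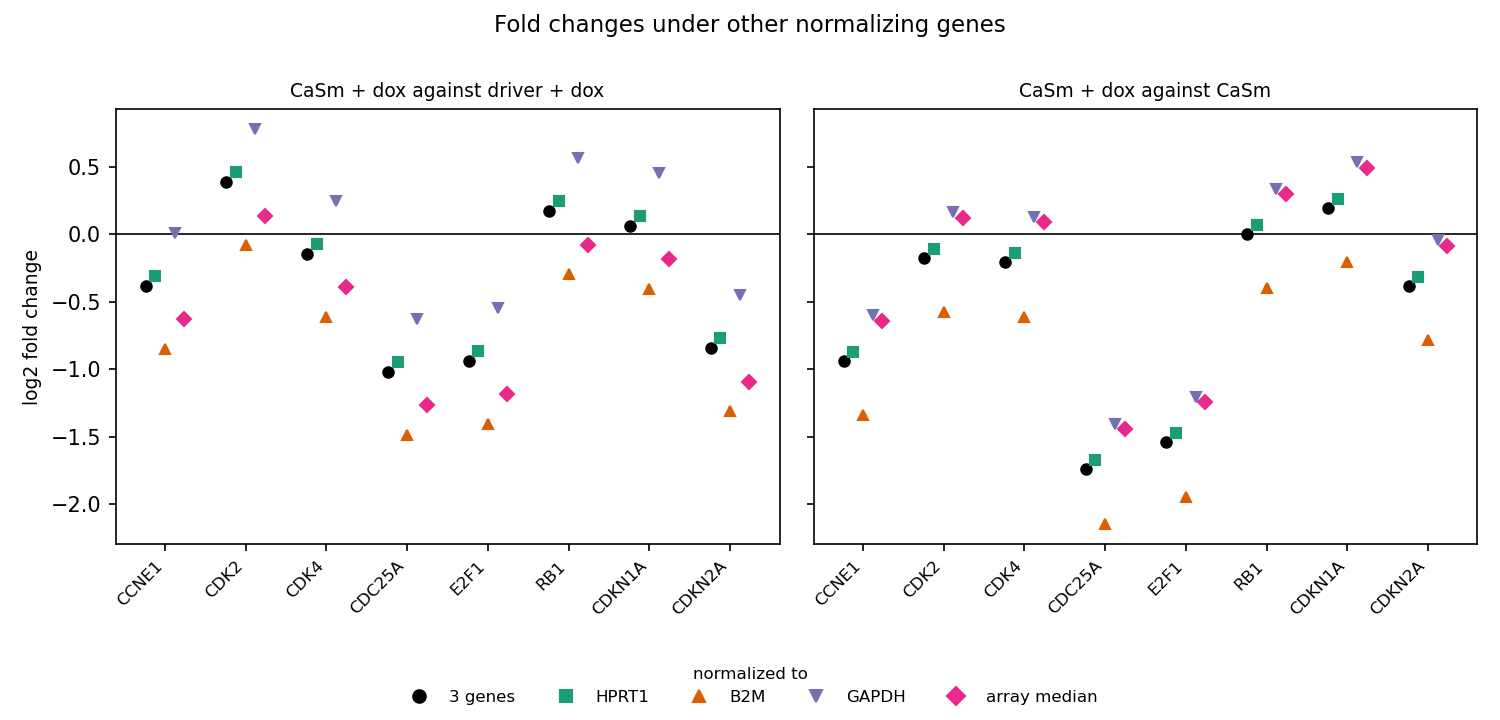
ΔCt of the normalizing genes B2M, HPRT1 and GAPDH on the 6 plates, in cycles relative to their own mean on that plate, with points for plates and bars for the mean of 2 plates. B2M was lower in ΔCt and GAPDH higher on induced plates than on control plates, while HPRT1 lay between 1.61 and 1.68 on average.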

How the data were processed

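RNA from 6 plates (3 conditions, 2 plates each) was measured on the RT2 Cancer PathwayFinder PCR array with SYBR Green on a Roche Lightcycler. Per plate, the authors deposited threshold cycles (Ct, in PCR cycles) for 89 genes, not normalized; how the threshold was set is not given in the sources used here. A table of the authors' own fold changes was not used, and control wells were not analysed here. Replicate numbers (runs) stand for date-like marks in the plate titles, whose meaning the labels do not give. The plate mean of B2M, HPRT1 and GAPDH was subtracted, as in the study's methods. Before that, Ct over 35 was set to 35, a limit chosen here. Mean −ΔCt of one condition minus that of the other is the log2 fold change. The model was limma 3.58.1 (R 4.3.3) with 3 condition means for −ΔCt, using all 6 plates (3 residual degrees of freedom) and empirical Bayes moderation. P-values were adjusted by Benjamini-Hochberg over all genes tested, leaving out the normalizing genes and genes at the limit on every plate compared. The threshold was 0.05. Figures were drawn with matplotlib 3.10.9 in Python 3.11.15. The fit was tested on simulated data with independent noise of equal size for all genes. No shifts shared by a whole plate were simulated, so this does not cover the one-way plate gaps seen here.

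The 8 genes and the gene lists were chosen with earlier results of these data known. The text names all 8 genes, genes of the lists that passed, the normalizing genes and, for each of the 8 that passed, the 3 genes most correlated with it over the 6 plates. One gene so named and 1 of the gene lists are not reported here. Alternatives were each normalizing gene alone, the median of all genes, 40 as the Ct limit, leaving out genes whose mean Ct was 30 or more, a run block, only the plates compared, no moderation or a trended one, run 2 alone, and omitting each plate in turn. Added after seeing the data were a crossed pairing and, for the gene ratios, omitting each plate.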

Additional observations from a re-analysis of the deposited data

How the results depend on the processing

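Of the 8 genes, 2 passed against driver controls with the settings reported. The count was 5 with B2M alone (CCNE1, CDK4 and CDKN2A added), and 0 with HPRT1 alone, with GAPDH alone, with a Ct limit of 40, with only the plates compared, without moderation and with the crossed pairing. It was 0 to 3 when each plate was left out. Against non-induced cells the count of 3 became 0 without moderation and 0 to 3 when each plate was left out. In non-induced cells against driver controls it was 0 throughout. Same-numbered plates did not deviate together (r = -0.17 over 76 genes between the 2 tet-on CaSm conditions). This is a single correlation over 2 runs, which cannot decide whether the run numbers pair the samples. With the replicate block 3, 3 and 0 genes passed (CDKN2A added against driver controls), and with the crossed pairing 0, 3 and 0. MYC against driver controls had an adjusted p of 0.0958 with the replicate block.

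Some genes that did not pass changed sign under an alternative. Against driver controls, CCNE1 was at 0.01 and CDK4 at 0.25 with GAPDH alone. With B2M alone CDK2 was at -0.08, RB1 at -0.295 and CDKN1A at -0.405. With the median of all genes RB1 was at -0.075 and CDKN1A at -0.185, and RB1 was at -0.00167 with the replicate block. Against non-induced cells, CDK2 was at 0.165 and CDK4 at 0.13 with GAPDH alone, CDK2 at 0.125 and CDK4 at 0.09 with the median of all genes, and RB1 at -0.40 and CDKN1A at -0.205 with B2M alone. In non-induced cells against driver controls, CDK4 was at -0.48 and RB1 at -0.375 with the median of all genes, and RB1 at -0.005 with the replicate block. Leaving out each plate gave CDKN1A -0.018 to 0.14 against driver controls. Against non-induced cells it gave RB1 -0.16 to 0.16, CDKN1A -0.04 to 0.44 and CDKN2A -0.80 to 0.038. For non-induced cells against driver controls it gave CDK4 -0.03 to 0.16 and CDKN1A -0.375 to 0.10. For these moves in counts and signs the cause was not tested. The plate gaps of 0.21 to 0.34 cycles are medians over 79 genes, and single genes had wider ones. For CDC25A the gap was 0.73 in induced cells and in driver controls and 0.13 in non-induced cells. For CDKN2A it was 0.79 to 0.84 over the conditions. With 2 plates per condition, changes near a gene's own gap cannot be told from plate error, and the number of plates limits the precision.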
